A study of Mus musculus with 10 samples.

Results

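The D-type cyclins *Ccnd1*, *Ccnd2* and *Ccnd3*, the kinases *Cdk4* and *Cdk6*, and the inhibitors *Cdkn1a* (p21), *Cdkn1b* (p27) and *Cdkn1c* (p57) were followed in single cells of the *Grem1* and *Lepr* lineages of the mouse hind limb. These 8 genes were chosen by name with earlier results of these data known, so they are not an independent set. They are 8 of the 29183 genes that were counted in both lineages. For the *Lepr*-lineage 50508 genes were listed. Of the gene lists used below, the genes from *Gmnn* on in alphabetical order were listed for the *Lepr*-lineage only. Examples are *Mki67*, *Pcna*, *Trp53* and *Jun*. Levels below are therefore shares over the 29183 genes and not over all transcripts. All 8 passed the minimum of 30 UMIs over the cells compared. A unique molecular identifier (UMI) tags a single cDNA molecule, so that its PCR copies are counted once.

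D-type cyclins bind CDK4 and CDK6, and the active kinase phosphorylates the retinoblastoma protein, which releases E2F factors and lets a cell pass from G1 into S phase. The CIP/KIP inhibitors bind cyclin and CDK complexes, and p21 is a well known target of p53, while p27 and p57 are associated with quiescence and differentiation. In cartilage, exit from the cell cycle accompanies chondrocyte maturation, and p57 is known to be needed for normal growth plate cartilage.

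Both lineages came from hind limbs of C57BL/6 mice. *Grem1-TdT* mice carry *Grem1-creERT* and *R26-LSL-TdTomato*, so that cells expressing *Grem1* while tamoxifen was present, and their progeny, are red, and they ate tamoxifen chow for 2 weeks from 5 to 6 weeks of age. *Lepr-TdT* mice carry a constitutive *Lepr-cre* with the same reporter and were age paired, and no tamoxifen is given for them, so this Cre marks any cell that has ever expressed *Lepr*. *Grem1*-lineage cells were sorted from excised articular cartilage (AC) and growth plate (GP), while *Lepr*-lineage cells came from whole bone and were negative for CD45, Ter119 and CD31. The cartilage was minced and digested with collagenase type II. The whole bone was first crushed by mortar and pestle, then minced and digested with collagenase type I. The labels do not give the tissue of a plate or the number of mice behind it, so p-values measure the spread between plates, which may be technical.

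Of 768 *Grem1*-lineage wells on 8 plates, 684 had at least 350 detected genes and were kept, with 133289 to 179071 UMIs per plate and a median of 1472.5 UMIs per cell. Of 162 *Lepr*-lineage wells on 2 plates, 160 were kept, with 59981 and 64310 UMIs per plate and a median of 505 UMIs per cell over the shared genes. For these wells the minimum of 350 was counted over the 50508 genes listed for the *Lepr*-lineage, where the median was 1222 UMIs per cell. It was thus easier to reach than over the 29183 genes used for the *Grem1*-lineage. All 96 well barcodes were shared by the *Grem1*-lineage plates and 92 of them occurred on the *Lepr*-lineage plates, since a barcode marks a well position on each plate. The 7 listed marrow stroma genes, such as *Cxcl12* and *Adipoq*, summed to 27150 to 38612 CPM (UMIs relative to the library size) in *Lepr*-lineage plates, and the 7 listed chondrocyte genes to 117 and 6469 CPM. The same chondrocyte genes summed to between 115126 and 189912 CPM in the *Grem1*-lineage sums described next. The 11 listed blood and immune genes reached 20340 to 29964 CPM in the *Lepr*-lineage, which was sorted against CD45. Their part alone in the differences between lineages was not tested. A comparison without cells rich in these and other cell types' genes is given below.

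*Grem1*-lineage cells were divided by 4 cartilage genes, none of which is a cell cycle gene. In 414 cells the UMIs of *Clu*, *Cilp* and *1500015O10Rik*, genes of articular chondrocytes, together exceeded those of *Cnmd* (chondromodulin), which is abundant in growth plate cartilage. These cells are called the *Clu*-group, and the other 270 the *Cnmd*-group. By construction the split genes differed, and *Cnmd* lay between 3158 and 7846 CPM in the *Clu*-group and between 20373 and 28356 CPM in the *Cnmd*-group. Each plate held 43 to 68 *Clu*-group and 26 to 40 *Cnmd*-group cells, and 35 cells lay within 5 UMIs of the boundary. The median depth was 1217 UMIs per cell in the *Clu*-group and 2218.5 in the *Cnmd*-group. UMIs were summed per plate and group and compared with edgeR's quasi-likelihood test, and a gene was called at a Benjamini-Hochberg adjusted p under 0.05 over all genes tested.

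The promoters of 3 genes that differed between the cell groups are shown first, and they were picked with these differences known. RefSeq promoters (GRCm38.p6) were matched for 5 of the 8 genes, and each run below spans 250 bases before and 20 bases after a transcription start, all on the plus strand. Capitals mark the E-box CACGTG, the GC box GGGCGG and the TATA box TATAAA, each searched on both strands with overlaps allowed. The *Cdk4* window is chr10:127063285-127063554, the *Cdk6* window chr5:3343643-3343912 and the *Cdkn1a* window, at the second of 2 annotated starts, chr17:29093519-29093788.
Cdk4: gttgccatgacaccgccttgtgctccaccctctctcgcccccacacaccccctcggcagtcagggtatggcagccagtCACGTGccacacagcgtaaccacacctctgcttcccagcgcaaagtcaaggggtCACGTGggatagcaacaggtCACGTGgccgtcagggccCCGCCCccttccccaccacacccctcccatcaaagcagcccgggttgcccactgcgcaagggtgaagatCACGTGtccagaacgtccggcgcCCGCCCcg
Cdk6: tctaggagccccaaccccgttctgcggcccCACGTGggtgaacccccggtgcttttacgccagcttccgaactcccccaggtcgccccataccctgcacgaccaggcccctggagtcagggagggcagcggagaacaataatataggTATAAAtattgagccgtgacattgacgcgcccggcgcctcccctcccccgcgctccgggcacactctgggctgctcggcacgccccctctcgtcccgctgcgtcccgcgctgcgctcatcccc
Cdkn1a: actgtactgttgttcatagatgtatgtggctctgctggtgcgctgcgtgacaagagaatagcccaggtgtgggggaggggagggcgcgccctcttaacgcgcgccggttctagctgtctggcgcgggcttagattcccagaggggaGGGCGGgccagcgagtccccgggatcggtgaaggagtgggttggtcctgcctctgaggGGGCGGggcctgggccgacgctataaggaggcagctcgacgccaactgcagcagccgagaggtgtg
The *Cdk4* window held 4 E-boxes, at -172, -118, -98 and -11 from the start, and 2 GC boxes. The *Cdk6* window held 1 E-box, at -220, and 1 TATA box, at -103. The *Cdkn1a* window held no E-box and 2 GC boxes, at -104 and -46. The window at the first *Cdkn1a* start, chr17:29090729-29090998, is not shown and held 0 matches of each motif searched, the GC box among them. The windows of *Ccnd3* and *Cdkn1b*, which are not shown, held no E-box either. Motifs of E2F (TTTGGCGC, TTTCGCGC and TTTCCCGC), AP-1 (TGANTCA), CRE (TGACGTCA) and forkhead (GTAAACA) factors and the CCAAT box were also searched. They had 0 matches in the 3 windows shown. Of 32851 RefSeq promoter windows of this length, 6.57% held an E-box, 34.1% a GC box and 12.9% a TATA box. The E2F motifs were each in 0.28% to 0.96%, CRE in 1.73%, forkhead in 3.38%, AP-1 in 7.23% and the CCAAT box in 35.4%. These matches describe the sequence and are not evidence of binding.

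*Ccnd2* and *Cdkn1a* took a larger share of the transcripts in the *Clu*-group, while *Ccnd1*, *Cdk4*, *Cdk6* and *Cdkn1c* took a larger share in the *Cnmd*-group. All 8 genes were recorded in both cell groups, and their proportions differed. *Ccnd2* was 8.82-fold higher and *Cdk6* 4.75-fold lower in the *Clu*-group. Of the 8 genes, 6 were called, 2 higher and 4 lower in the *Clu*-group, where 18.6% of all 3751 genes tested were called (9.73% higher and 8.82% lower). The median log2 fold change of the 8 genes was -0.60, against 0.00 over all genes tested. The groups did not overlap for 4 of the 8 genes, where 4.99% of all genes tested did not overlap.

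*Ccnd2* encodes the cyclin D2 subunit. Its level in the *Clu*-group ranged from 780 to 1809 CPM over the 8 plates with a median of 1127 CPM, from 39 to 114 UMIs per plate. In the *Cnmd*-group it ranged from 32.8 to 349 CPM with a median of 97.0 CPM. Every *Clu*-group sum was above every *Cnmd*-group sum. The mean was 1191 ± 359 CPM in the *Clu*-group and 139 ± 104 CPM in the *Cnmd*-group (SD, n = 8 plates), and the log2 fold change was 3.14 (SE 0.31, edgeR adjusted p = 3.2e-08).

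*Ccnd1* encodes cyclin D1, a cyclin that is induced by growth factor signals in many cells, and had the opposite direction. It ranged from 0 to 94.3 CPM with a median of 17.5 CPM in the *Clu*-group and from 42.3 to 158 CPM with a median of 78.0 CPM in the *Cnmd*-group. These values rest on 13 and 62 UMIs in all. The *Clu*-group was lower on all 8 plates, although the groups overlapped, because the *Clu*-group sum of plate 1 was as high as most *Cnmd*-group sums. On the log2 scale the difference was -1.61 (SE 0.47, edgeR adjusted p = 0.016), and the call was lost without plate 5 (log2 fold change -1.47, adjusted p = 0.052).

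*Ccnd3* encodes cyclin D3. It ranged from 62.9 to 184 CPM with a median of 86.7 CPM in the *Clu*-group and from 49.9 to 128 CPM with a median of 97.8 CPM in the *Cnmd*-group. The groups overlapped almost fully, and the *Clu*-group was higher on 3 of 8 plates. The log2 fold change was 0.07, with a 95% interval from -0.52 to 0.66 (edgeR adjusted p = 0.92). Of the UMIs of all 3 D-type cyclins, *Ccnd2* held 89.9% ± 5.21 in the *Clu*-group and 41.1% ± 21.3 in the *Cnmd*-group (SD, n = 8 plates). The *Clu*-group had the higher share on each of the 8 plates (p = 0.0078 by a two-sided exact permutation of signs within plates, where 8 pairs give no smaller p).

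*Cdk6* encodes a catalytic partner of the D-type cyclins. Its level ranged from 39.9 to 315 CPM with a median of 193 CPM in the *Clu*-group and from 335 to 1432 CPM with a median of 1004 CPM in the *Cnmd*-group. The groups did not overlap. This was a log2 fold change of -2.25 (SE 0.35, edgeR adjusted p = 3.1e-05).

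*Cdk4* encodes the other partner kinase and ranged from 46.9 to 158 CPM with a median of 88.0 CPM in the *Clu*-group, against 163 to 349 CPM with a median of 225 CPM in the *Cnmd*-group. The highest *Clu*-group sum lay just below the lowest *Cnmd*-group sum. The log2 fold change was -1.26 (SE 0.26, edgeR adjusted p = 0.00086). Of the UMIs of both kinases, *Cdk6* held 61.1% ± 19.6 in the *Clu*-group and 75.4% ± 13.3 in the *Cnmd*-group (SD, n = 8 plates; p = 0.0156 by exact permutation of signs), and it was lower in the *Clu*-group on 7 of 8 plates.

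*Cdkn1a* encodes p21, which arrests cells in G1 when it accumulates. It ranged from 1647 to 2987 CPM with a median of 2056 CPM in the *Clu*-group and from 535 to 1643 CPM with a median of 938 CPM in the *Cnmd*-group. The lowest *Clu*-group sum lay just above the highest *Cnmd*-group sum, so the groups did not overlap. The means were 2154 ± 459 and 997 ± 336 CPM (SD, n = 8 plates), with a log2 fold change of 1.11 (SE 0.20, edgeR adjusted p = 0.00019).

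*Cdkn1c* encodes p57, the imprinted member of the family. It ranged from 91.8 to 412 CPM with a median of 222 CPM in the *Clu*-group and from 366 to 1319 CPM with a median of 610 CPM in the *Cnmd*-group. The groups overlapped, but within each of the 8 plates the *Clu*-group was lower. The difference was -1.61 on the log2 scale (SE 0.30, edgeR adjusted p = 0.00033). Of the UMIs of the 3 inhibitors, *Cdkn1a* held 81.7% ± 5.27 in the *Clu*-group and 54.4% ± 4.85 in the *Cnmd*-group, and *Cdkn1c* 8.68% ± 4.33 and 38.1% ± 10.7 (SD, n = 8 plates; p = 0.0078 for each by exact permutation of signs).

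*Cdkn1b* encodes p27, a target of FoxO factors in many cell types. It ranged from 15.7 to 516 CPM with a median of 202 CPM in the *Clu*-group and from 14.1 to 306 CPM with a median of 96.0 CPM in the *Cnmd*-group. The spread between plates exceeded the difference between groups, yet the *Clu*-group was higher on 7 of 8 plates. The log2 fold change was 0.91 (SE 0.52, edgeR adjusted p = 0.24) and did not pass the test. With the plate as a block, which compares the 2 sums of each plate, it was 0.95 (SE 0.26, adjusted p = 0.0090), and 7 of the 8 genes were called where 23.1% of all genes were. By exact permutation of signs within plates, p was 0.047.

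**Figure D1:**
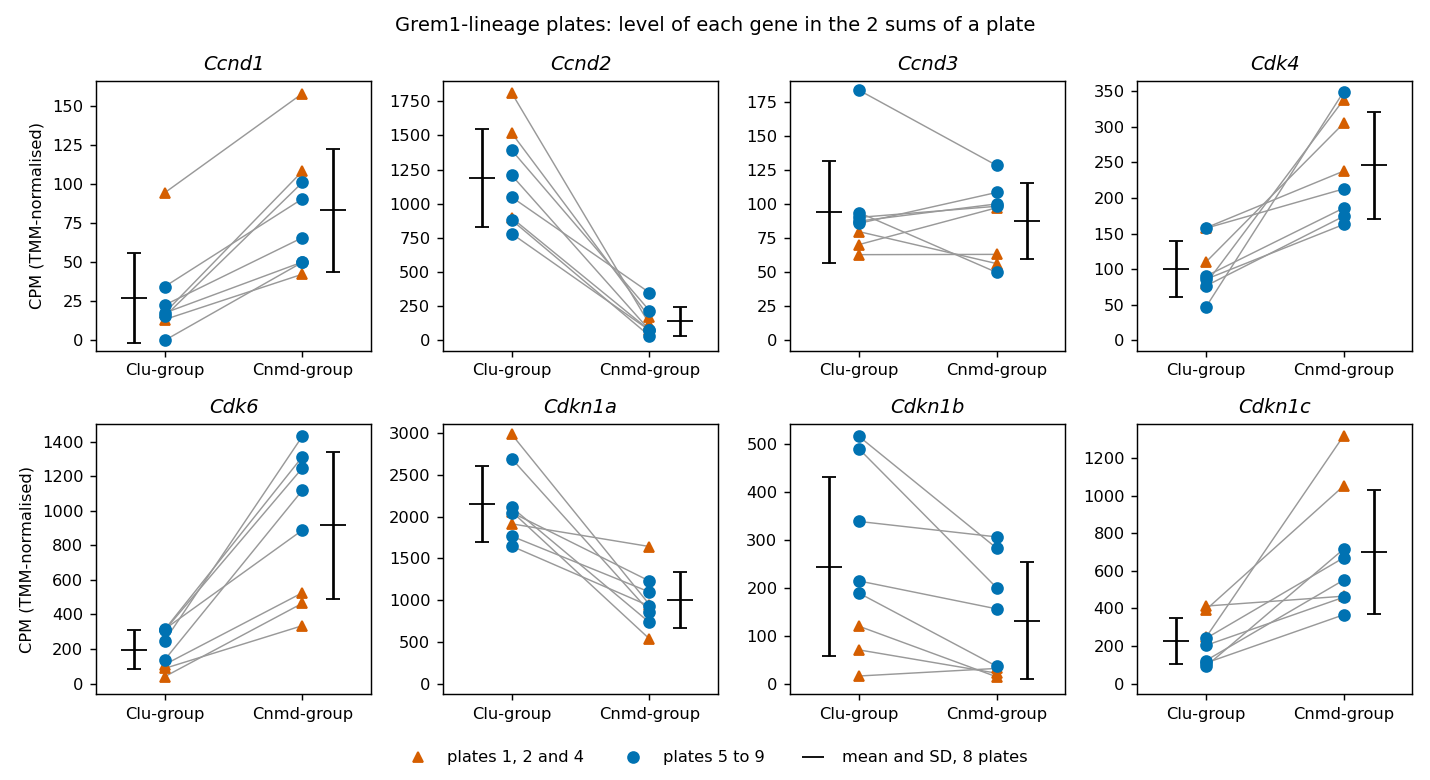
Level of each gene in CPM (linear axes, TMM-normalised) in the *Clu*-group and *Cnmd*-group sums of the 8 *Grem1*-lineage plates, with a line joining the sums of a plate and black bars for the mean and SD. For *Ccnd2* and *Cdkn1a* all 8 lines run down from the *Clu*-group, and for *Ccnd1*, *Cdk4*, *Cdk6* and *Cdkn1c* all 8 run up. Triangles (plates 1, 2 and 4) lie below the circles (plates 5 to 9) within each group for *Cdk6* and *Cdkn1b*.

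CPM are shares of the recorded transcripts of the 29183 genes, and *Cnmd*-group cells held more UMIs per cell. Without scaling for depth, *Cdkn1a* had 2.56 ± 0.71 UMIs per cell in the *Clu*-group and 2.61 ± 0.97 in the *Cnmd*-group (SD, n = 8 plates). On this scale the log2 fold change of *Cdkn1a* was -0.03 (95% interval -0.48 to 0.41, edgeR adjusted p = 0.89), so its difference lies in the share of transcripts and not in UMIs per cell. *Ccnd2* kept its direction, with 1.39 and 0.36 UMIs per cell and a log2 fold change of 1.98 (edgeR adjusted p = 4.8e-06). *Cdk6* had 0.23 UMIs per cell in the *Clu*-group and 2.34 in the *Cnmd*-group, a log2 fold change of -3.37. *Ccnd1*, *Cdk4* and *Cdkn1c* stayed lower and called as well (log2 fold changes of -2.74, -2.40 and -2.81), *Ccnd3* became lower at -1.07 (adjusted p = 0.0045), and *Cdkn1b* moved to -0.17 (adjusted p = 0.77). This scale shifts the median of all genes by -1.13 on the log2 scale. Less RNA per cell and lower capture per well cannot be told apart here.

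**Figure D2:**
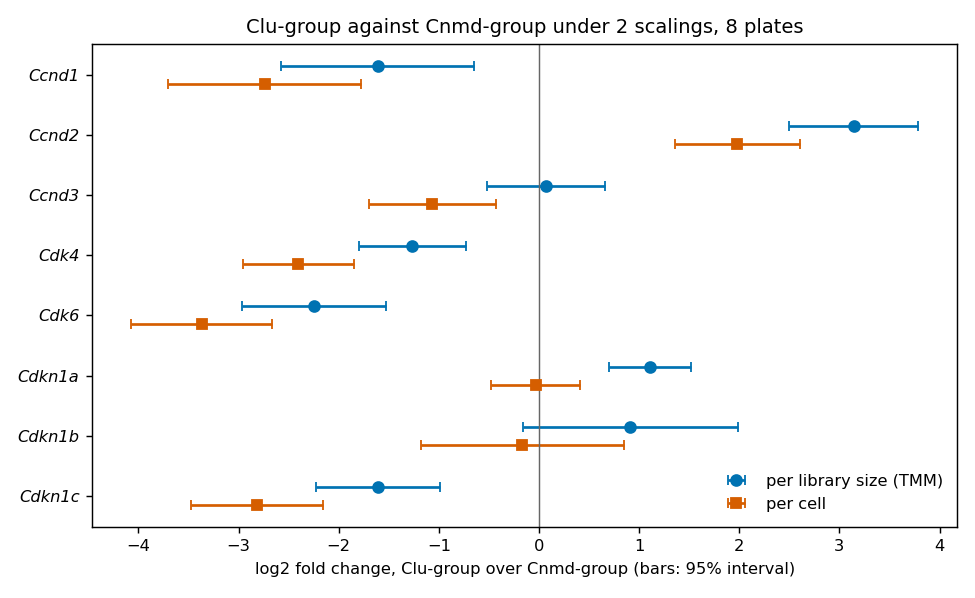
Log2 fold change of the *Clu*-group over the *Cnmd*-group for each gene (points, with 95% intervals as bars) when sums are scaled by library size (circles) or by the number of cells (squares), over 8 plates. *Ccnd2* lies right of 0 and *Ccnd1*, *Cdk4*, *Cdk6* and *Cdkn1c* lie left of 0 on both scales, while *Cdkn1a* moves from 1.11 to -0.03.

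Shares of cells with a UMI were compared between the groups at a common depth. To remove the difference in depth, each cell was thinned to 796 UMIs, which left out 60 *Clu*-group and 8 *Cnmd*-group cells. *Ccnd2* was then recorded in 45.5% of *Clu*-group cells (95% Clopper-Pearson interval 40.2 to 50.8) and 11.8% of *Cnmd*-group cells (8.18 to 16.4), against 54.8% and 21.9% as sequenced. *Cdk6* was recorded in 7.91% (5.32 to 11.2) and 42.7% (36.7 to 49.0) after thinning, and in 12.8% and 57.8% before. Such intervals cover counting error only.

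For *Cdkn1a* the shares were equal as sequenced, at 65.0% and 65.2%, and after thinning they were 54.2% (48.9 to 59.5) in the *Clu*-group and 42.0% (35.9 to 48.2) in the *Cnmd*-group. *Cdk4* was found in 5.93% and 16.03% of thinned cells, *Cdkn1c* in 14.1% and 24.4%, and *Ccnd1* in 1.69% and 7.63%, each lower in the *Clu*-group with intervals that do not overlap. *Ccnd3* (7.34% and 8.02%) and *Cdkn1b* (10.7% and 9.16%) had intervals that overlap. No cell type on these plates is known to lack these genes. The 84 wells below the gene minimum held 39804 UMIs, of which 80 were *Cdkn1a* (2010 CPM), 40 *Ccnd2* (1005 CPM) and 6 *Cdk6* (151 CPM). These levels are near the *Clu*-group means of 2154, 1191 and 195 CPM. By the same split, most of these wells fell in the *Clu*-group. It had 481 wells with 414 kept, against 287 and 270 in the *Cnmd*-group. *Ccnd1*, with 3 UMIs in the low wells (75.4 CPM), was nearer the *Cnmd*-group mean of 83.1 CPM than the *Clu*-group mean of 26.9 CPM. Whether the wells hold free RNA or shallow cells cannot be told apart. The part of free RNA in the shares was not tested.

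**Figure D3:**
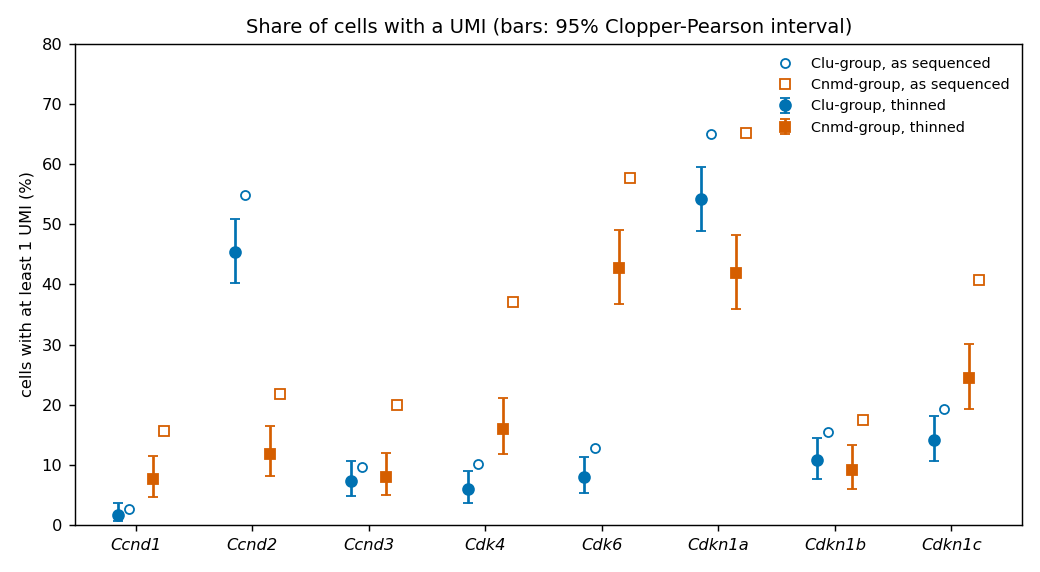
Share of cells with at least 1 UMI of each gene in the *Clu*-group (circles) and *Cnmd*-group (squares), as sequenced (open) and after thinning to 796 UMIs per cell (filled, with 95% Clopper-Pearson intervals). *Ccnd2* stands at 45.5% against 11.8% and *Cdk6* at 7.91% against 42.7% after thinning, and the open symbols of *Cdkn1a* coincide.

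A few cells held much of some transcripts. The 10 cells with the most *Cdkn1c* UMIs carried 42.5% of the 515 *Cdkn1c* UMIs of the *Cnmd*-group, and 1 cell held 51. For *Cdk6* in the *Cnmd*-group the highest cell held 32 UMIs, and 50 of 270 cells held at least 5. For *Ccnd2* in the *Clu*-group the highest cell held 11 UMIs, and the 10 highest carried 14.8% of 581. Doublets were not removed, since no caller was run on these plates.

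Within the thinned cells, the number of cells with both of 2 genes was set beside the number that the product of their shares within plates gives, as a description. All pairs of the 8 genes were counted in each group. The pairs below were picked with their values in view, include the largest departures and were not tested. Other pairs lay close to the product, such as *Ccnd2* with *Cdkn1c* in the *Clu*-group (24 against 23.9) and *Cdkn1a* with *Cdkn1c* in the *Cnmd*-group (27 against 26.5). In the *Clu*-group, *Ccnd2* and *Cdkn1a* were both recorded in 87 of 354 cells, against 85.9 from the product. *Cdk4* and *Cdkn1a* were both recorded in 4 *Clu*-group cells, against 11.2. In the *Cnmd*-group, *Cdk6* and *Cdkn1a* were both recorded in 52 of 262 cells, against 47.7, and *Ccnd2* and *Cdkn1c* in 2, against 7.55. Departures the other way were also seen in the *Cnmd*-group, with 17 cells against 9.90 for *Cdkn1a* and *Cdkn1b*, 10 against 4.66 for *Ccnd2* and *Cdk4*, 7 against 2.32 for *Ccnd1* and *Ccnd2*, and 7 against 2.96 for *Ccnd1* and *Cdk4*.

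Levels also varied between plates. In the *Cnmd*-group, *Cdk6* lay between 335 and 525.7 CPM on plates 1, 2 and 4 and between 888 and 1432 CPM on plates 5 to 9. In the *Clu*-group it lay between 39.9 and 110 CPM and between 138 and 315 CPM. The plate sets did not overlap in either cell group. *Cdkn1b* showed the same order, with 14.1 to 31.5 CPM against 36.2 to 306 CPM in the *Cnmd*-group and 15.7 to 120 CPM against 189 to 516 CPM in the *Clu*-group. *Cdkn1c* in the *Clu*-group was higher on plates 1, 2 and 4, at 246 to 412 CPM against 91.8 to 240 CPM, and *Ccnd3* was lower there, at 62.9 to 79.8 CPM against 85.8 to 184 CPM. Thus the plate sets did not overlap for 4 of the 8 genes in the *Clu*-group and 2 of 8 in the *Cnmd*-group, where 8.53% and 9.3% of all 3751 genes tested did not. The sets were formed with values of these data known, so no test is given, and the labels give no reason for a difference.

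The 8 listed immediate early genes summed to 14024 to 19154 CPM in the *Cnmd*-group sums of plates 1, 2 and 4 and to 27369 to 35555 CPM on plates 5 to 9. In the *Clu*-group the sets overlapped, with 14126 to 22578 CPM on plates 1, 2 and 4 and 18821 to 24732 CPM on plates 5 to 9. Their part in the levels of *Cdk6* and *Cdkn1b* was not tested. Within plates 1, 2 and 4 the log2 fold change between cell groups was 3.60 for *Ccnd2*, -2.44 for *Cdk6*, 1.19 for *Cdkn1a* and -1.38 for *Cdkn1c*. Within plates 5 to 9 the same differences were 2.89, -2.18, 1.09 and -1.88, and all of these were called. *Ccnd1* was called within plates 5 to 9 (-1.98) and not within plates 1, 2 and 4 (-1.28).

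Over the 16 sums of plate and cell group, the genes whose log2 levels followed *Cdkn1a* most closely were *Carmil1* (Pearson r = 0.92), *Capg* (r = 0.90) and *Gimap6* (r = 0.88). For *Cdk6* they were *Acan*, the core protein of aggrecan (r = 0.96), *Eef2* (r = 0.92) and *Fxyd2* (r = 0.92). Between *Cdkn1a* and *Cdk6* themselves r was -0.70. The sums share plates and libraries, and 3750 genes were searched, so these values only describe the pattern.

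Other genes of the cycle were read from lists. Of 9 tested genes of G1 and S entry, such as *Cdk2*, 0 were called by edgeR and 0 by DESeq2. Of the INK4 inhibitors, only *Cdkn2c* and *Cdkn2d* reached the minimum of UMIs and were tested. *Cdkn2a* (1 UMI in each cell group) and *Cdkn2b* (9 in the *Clu*-group and 6 in the *Cnmd*-group) were not tested. An unadjusted edgeR p under 0.05 was seen for 2 of the 9 tested genes, *Cdkn2c* and *Cdkn3*, with log2 fold changes of -1.14 and -1.73. With the plate as a block, both of these were called (adjusted p = 0.032 and 0.043), where 23.1% of all genes were. The list of S and G2/M genes held 37 genes, of which 29 were listed for both lineages. The proliferation genes *Mki67*, *Top2a* and *Pcna* were not among the 29 and could not be examined. Of the 11 tested, 2 were called, both lower in the *Clu*-group, a share close to the 18.6% of all genes called. These were *Cdc20*, an activator of the anaphase promoting complex, at 13.7 ± 17.9 against 105 ± 138 CPM (log2 fold change -2.70, edgeR adjusted p = 0.011), and the centromeric histone *Cenpa*, at 41.6 ± 33.8 against 126 ± 93.8 CPM (SD, n = 8 plates; -1.55, edgeR adjusted p = 0.035). The remaining 9 did not pass this test, and with the plate block *Ccnb1*, a mitotic cyclin, was called as well (-2.25, adjusted p = 0.055 without and 0.024 with the block).

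Of the 9 tested p53 targets, 1 was called, *Ddit4l*, an inhibitor of mTOR signalling, which was higher in the *Clu*-group (415 ± 258 against 137 ± 120 CPM, SD, n = 8 plates; log2 fold change 1.51, edgeR adjusted p = 0.021). This is close to the 9.73% of all genes called higher, and the median of the list was -0.26. With the plate block *Gdf15*, a secreted stress factor, was also called, as lower (-2.42, adjusted p = 0.14 without and 0.032 with the block). Of the FoxO factors, *Foxo1* was higher (442 ± 73.0 against 115 ± 69.7 CPM; 1.90, edgeR adjusted p = 4.5e-06), and *Foxo3* was called only with the plate block (0.52, adjusted p = 0.26 without and 0.014 with it). Of the 8 immediate early genes, *Fosb* (-1.03, edgeR adjusted p = 0.0097) and *Atf3* (-0.74, adjusted p = 0.047) were lower in the *Clu*-group, and within plates 1, 2 and 4 their log2 fold changes were 0.00 and 0.26. With the plate block *Egr1* (0.62, adjusted p = 0.00034) and *Fos* (-0.59, adjusted p = 0.018) were called too, in opposite directions.

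Between lineages, *Ccnd1* was not recorded in any *Lepr*-lineage cell, *Ccnd2*, *Cdkn1a* and *Cdkn1c* were lower and *Ccnd3* was higher than in the *Grem1*-lineage. Of the 8 genes, 5 were called, where 21.1% of all 4114 genes tested were called (8.07% higher and 13.0% lower in the *Lepr*-lineage). For 4 of the 8 genes the lineages did not overlap, where 31.6% of all genes tested did not. The median log2 fold change of the 8 genes was -1.44, against -0.15 over all genes tested. With 2 plates against 8, the exact permutation test cannot go below p = 0.0444, which it gave for each of these 4 genes.

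*Ccnd1* had 0 UMIs on both *Lepr*-lineage plates, of 124291 UMIs in all. In the *Grem1*-lineage it ranged from 25.7 to 141 CPM with a median of 64.8 CPM. A count of 0 allows up to 3 counts over the group, or 18.6 CPM. The mean of the *Grem1*-lineage plates, 65.3 CPM, was 3.51-fold above this limit (edgeR adjusted p = 0.012 between lineages). Of the 75 *Grem1*-lineage UMIs, 62 came from the *Cnmd*-group. In the *Clu*-group the mean of 26.9 ± 28.9 CPM (SD, n = 8 plates) lay above the limit and the median of 17.5 CPM below it. A lower level than in the *Clu*-group is therefore not shown. Among cells, 0 of 160 with a UMI allows a share of cells with a UMI of up to 1.88%. At a median of 505 UMIs per *Lepr*-lineage cell, this does not limit the share of cells that express the gene.

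*Ccnd2* was at 290 and 165 CPM on *Lepr*-lineage plates 1 and 2 and ranged from 335 to 927 CPM with a median of 641 CPM in the *Grem1*-lineage. Both *Lepr*-lineage plates were below every *Grem1*-lineage plate. On the log2 scale the difference was -1.42 (SE 0.43, edgeR adjusted p = 0.024). Plate 1 of the *Lepr*-lineage held 9 cells with 1% or more of their UMIs from chondrocyte genes, and these 9 cells carried 12 of the 37 *Ccnd2* UMIs of the lineage. Without them the log2 fold change was -1.96 (edgeR adjusted p = 0.0035).

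*Ccnd3* was at 290 and 152 CPM in the *Lepr*-lineage and ranged from 67.0 to 160 CPM with a median of 98.5 CPM in the *Grem1*-lineage. Only plate 1 lay above all *Grem1*-lineage plates. The difference was 1.15 on the log2 scale (SE 0.37, edgeR adjusted p = 0.032). Per cell it was 0.50 (edgeR adjusted p = 0.39) and the call was lost. The call was also lost when the minimum of 350 detected genes was counted over the shared genes. Without plate 1 of the *Lepr*-lineage the log2 fold change was 0.60.

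*Cdkn1a* was at 858 and 305 CPM in the *Lepr*-lineage and ranged from 1259 to 1877 CPM with a median of 1593 CPM in the *Grem1*-lineage. Both plates lay below the *Grem1*-lineage, with plate 2 the lower. The log2 fold change was -1.45 (SE 0.36, edgeR adjusted p = 0.0072). It was recorded in 30.0% of *Lepr*-lineage cells and 65.1% of *Grem1*-lineage cells, and after thinning to 529 UMIs in 37.7% (95% Clopper-Pearson interval 26.9 to 49.4) and 42.7% (38.9 to 46.5). Thinning left out 83 of 160 *Lepr*-lineage cells and 2 of 684 *Grem1*-lineage cells, and the thinned shares overlap.

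*Cdkn1c* was at 157 and 178 CPM in the *Lepr*-lineage and ranged from 249 to 977 CPM with a median of 494 CPM in the *Grem1*-lineage. The lineages did not overlap. This gave a log2 fold change of -1.73 (SE 0.47, edgeR adjusted p = 0.013).

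*Cdk4*, *Cdk6* and *Cdkn1b* did not pass the edgeR test between lineages. *Cdk4* was at 169 and 229 CPM in the *Lepr*-lineage, within the 147 to 241 CPM of the *Grem1*-lineage, with a log2 fold change of 0.03 and a 95% interval from -0.63 to 0.68 (edgeR adjusted p = 0.97). *Cdk6* was at 326 and 419 CPM, within the 259 to 1132 CPM of the *Grem1*-lineage plates, with a log2 fold change of -0.86 (edgeR adjusted p = 0.25). *Cdkn1b* rested on 4 *Lepr*-lineage UMIs (12.1 and 38.1 CPM against 26.8 to 429 CPM), with a log2 fold change of -2.90 (95% interval -5.35 to -0.44, edgeR adjusted p = 0.086). Both *Cdk6* (-1.54, edgeR adjusted p = 0.029) and *Cdkn1b* (-3.52, adjusted p = 0.014) were called as lower in UMIs per cell, and DESeq2 also called *Cdkn1b* (-2.93, adjusted p = 0.031).

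**Figure D4:**
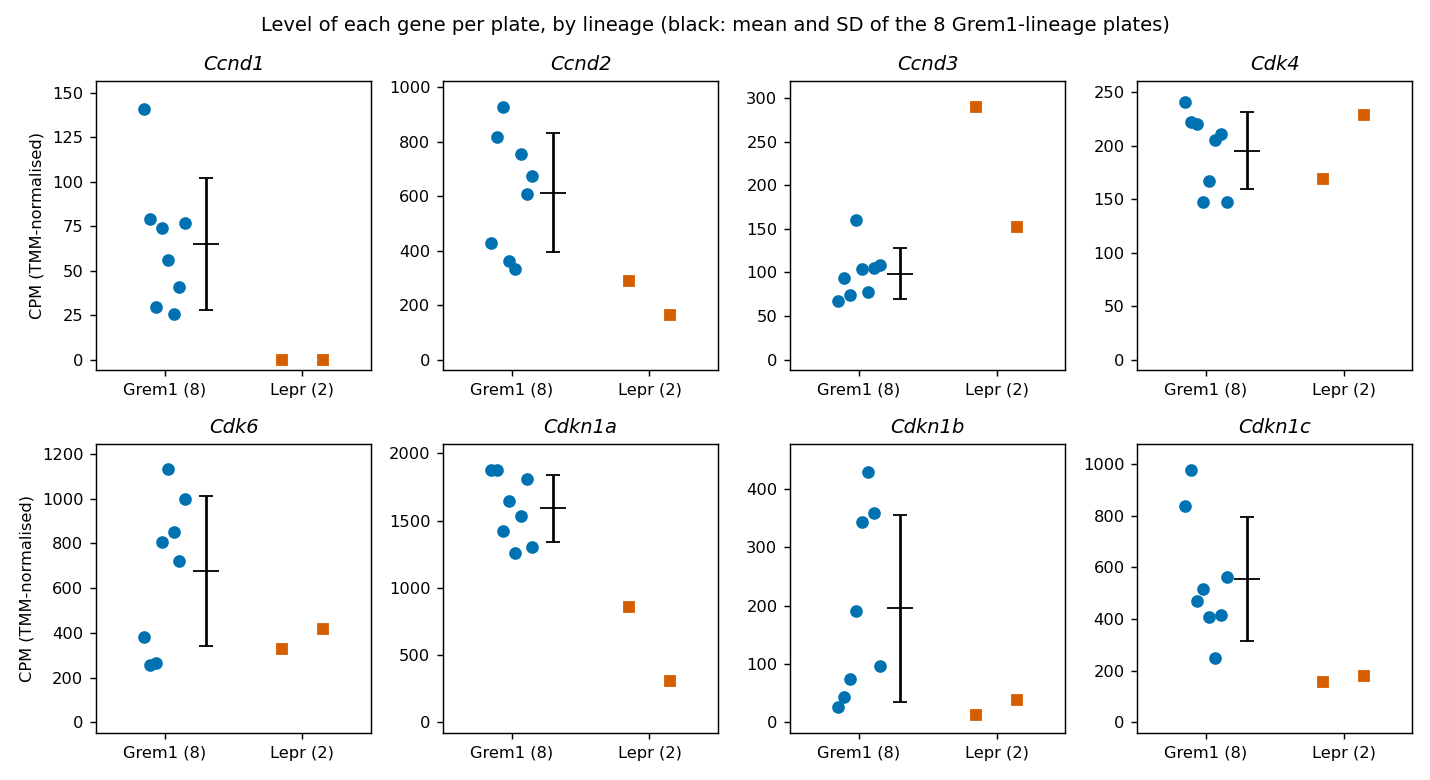
Level of each gene in CPM (linear axes, TMM-normalised) on the 8 *Grem1*-lineage plates (circles, with black bars for the mean and SD) and the 2 *Lepr*-lineage plates (squares). The squares of *Ccnd1*, *Ccnd2*, *Cdkn1a* and *Cdkn1c* lie below all circles, those of *Cdk4* and *Cdk6* lie among them, and 1 square of *Ccnd3* lies above them.

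The comparison of lineages depended on the *Grem1*-lineage cells it was set against. Against the *Clu*-group alone, the log2 fold change of *Ccnd2* was -2.40 and was called, while that of *Cdk6* was 0.92 and that of *Cdkn1c* -0.48, neither called. Against the *Cnmd*-group alone, *Ccnd2* was at 0.73 and *Cdk6* at -1.33, neither called, and *Cdkn1c* at -2.10 and called. By these values the *Lepr*-lineage level of *Ccnd2* and *Cdk6* lay between those of the cell groups. Scaled by library size alone, which raises the median of all genes by 0.46 on the log2 scale, 675 genes were higher and 316 lower in the *Lepr*-lineage, and *Ccnd1* and *Ccnd3* were the only 2 of the 8 genes called. Without 1 or the other *Lepr*-lineage plate, 1 of the 8 genes was called, *Cdkn1a* (-2.39) without plate 1 and *Ccnd3* (1.54) without plate 2. Another run left out cells with 1% or more of UMIs from 24 genes of other cell types, among them blood and immune genes. These were 120 of the 160 *Lepr*-lineage, 16 *Clu*-group and 28 *Cnmd*-group cells. Of the 8 genes, only *Cdkn1a* was then called (-1.98).

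Of the 10 tested genes of G1 and S entry, 0 were called between lineages by edgeR, where 21.1% of all genes were, and 0 by DESeq2. An unadjusted edgeR p under 0.05 was seen for 0 of the 10, against 34.7% of all genes. Of 13 tested S and G2/M genes, 1 was called, *Dtl*, a substrate receptor for p21 degradation, which was higher in the *Lepr*-lineage (167 ± 38.0 CPM, n = 2, against 15.1 ± 10.0 CPM, n = 8, SD; log2 fold change 3.37, edgeR adjusted p = 0.00031). Genes not listed for the *Grem1*-lineage, such as *Mki67* and *Pcna*, could not be compared. Among 9 p53 targets, of which 2 were called, a share near the 21.1% of all genes, *Btg2* (-4.22, edgeR adjusted p = 0.00031) and *Ddit4l* (-1.83, adjusted p = 0.038) were lower. Both FoxO factors tested were lower, *Foxo1* at 36.9 ± 16.2 against 272 ± 67.1 CPM (-2.84, edgeR adjusted p = 0.00035) and *Foxo3* at -2.23 (adjusted p = 0.014).

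All 8 tested immediate early genes, which respond within minutes to stimulation and to tissue dissociation, were lower in the *Lepr*-lineage. *Dusp1* was at 1167 ± 555 CPM (n = 2) against 5707 ± 871 CPM (n = 8), a log2 fold change of -2.29 (edgeR adjusted p = 0.00026). The other 5 with the smallest p were *Btg2*, *Egr2*, *Egr1*, *Atf3* and *Fos*, with log2 fold changes of -4.22, -7.88, -3.21, -4.14 and -2.43, where *Egr2* had 0 UMIs in the *Lepr*-lineage. Summed, the 8 genes were at 5442 and 3935 CPM on *Lepr*-lineage plates 1 and 2 and at 14024 to 35555 CPM in the *Grem1*-lineage sums. *Cdkn1a* was lower in the same comparison, and the part of these genes in its level was not tested. The tissues of the lineages were dissociated in different ways, so lineage and dissociation cannot be told apart here.

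The 8 genes lie on 5 chromosomes in GRCm38 (GENCODE annotation), *Ccnd2* at chr6:127125162-127152193 and *Cdkn1b* at chr6:134920401-134925513, *Ccnd3* at chr17:47505051-47599691 and *Cdkn1a* at chr17:29090976-29100727, *Ccnd1* at chr7:144929931-144939925 and *Cdkn1c* at chr7:143458339-143461050, *Cdk4* at chr10:127063534-127067920 and *Cdk6* at chr5:3341485-3531008. For 7 of them an exon overlaps an exon of a gene on the other strand, such as *Tspan31* for *Cdk4* and *Bysl* for *Ccnd3*, and *Cdkn1b* has no such partner. Whether the counting used strand is not given in the sources used here, so reads of these partners cannot be told apart from those of the 7 genes.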

How the data were processed

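Whole-number UMI counts per gene and well were deposited, and the authors had not normalised them. The submitters' processing notes name UMI-tools, STAR, featureCounts, SAMtools, Seurat and the build mm10, without versions. The *Grem1*-lineage table held 29183 complete genes, and 1 incomplete gene was left out. All 29183 were among the 50508 genes of the *Lepr*-lineage, and both comparisons used these shared genes. Plates were grouped by the lineage in their labels. The genes, lists and comparisons were chosen with earlier results of these data known.

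Wells with at least 350 detected genes, counted over the genes listed for their own lineage, were kept. UMIs were summed per plate, or per plate and cell group where it had at least 10 cells. Genes with at least 30 UMIs were tested in R 4.3.3 with edgeR 4.0.16 (TMM, glmQLFit and glmQLFTest, with Benjamini-Hochberg adjusted p under 0.05), which was tested on simulated data. CPM are TMM-normalised, except the sums over gene lists and the low-gene wells. The standard error is the log2 fold change over the square root of the F statistic. Single genes were also tested by exact permutation of log2(CPM + 1) with scipy 1.17.1. DESeq2 1.42.0, other scalings and filters, plate sets and each plate left out were alternatives, and 4 were added after the data were seen. No 2 plates agreed within sampling noise.

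Both sums of a plate come from the same labelled sample, so they are paired by plate. Their deviations correlated across genes at a mean r of 0.153 (0.0966 to 0.189, over 0.1 on 7 of 8 plates), against -0.0219 for different plates. Besides the 8 genes, those named are the 4 split genes, each called gene of the 5 lists (the 6 with the smallest p where more were called) and the 3 genes most like *Cdkn1a* and *Cdk6*. In the cell groups *Foxo3*, *Cdkn2c*, *Cdkn3*, *Ccnb1*, *Gdf15*, *Egr1* and *Fos* were picked with their values in view. So were *Cdk2*, the other INK4 genes and the examples of markers. Genes named as not listed for the *Grem1*-lineage are examples. Over the 124291 *Lepr*-lineage UMIs, a count of 0 allows 3 counts.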

Additional observations from a re-analysis of the deposited data

Results flagged for a closer look

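In 24 groups of 8 plates, 4 held a plate far from the others by Dixon's test (critical value 0.526), and chance alone gives about 1 such group in 20. *Ccnd1* on plate 1 reached 141 CPM in the *Grem1*-lineage (21 UMIs, next plate 79.0 CPM) and 94.3 CPM in its *Clu*-group (6 UMIs, next 34.3 CPM). *Ccnd3* on plate 5 reached 160 CPM in the *Grem1*-lineage (26 UMIs, next plate 109 CPM) and 184 CPM in its *Clu*-group (12 UMIs, next 93.8 CPM). The *Clu*-group sums are part of the lineage sums, so the 4 values stand for 2 plates.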

How the results depend on the processing

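Between cell groups, 696 genes were called, against 444 with filterByExpr, 284 on plates 1, 2 and 4, 2403 per cell, and 570 to 680 without each plate in turn. Of the 8 genes, 5 to 6 were called without each plate in turn. The log2 fold change of *Ccnd3* changed sign with no filter on low counts (-0.0021), every well (-0.0251), without plates 5 (-0.0369) and 7 (-0.0239; highest 0.1417 without plate 9), without cells rich in other cell types' genes (-0.0967), by library size alone (-0.18) and per cell (-1.07). Per cell, *Cdkn1a* (-0.0339) and *Cdkn1b* (-0.17) also changed sign, and on plates 1, 2 and 4 so did *Atf3* (0.26) and *Fosb* (0.0025). By library size alone the median of all genes shifted by -0.25, with 271 higher and 615 lower calls, and per cell there were 119 higher and 2284 lower. The plate block changed no other call among the 8 genes than that of *Cdkn1b* and gave 865 genes.

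Between lineages, 866 genes were called, against 551 with plates 1, 2 and 4 of the *Grem1*-lineage, 242 without cells rich in other cell types' genes, 1341 per cell and 435 to 843 without each plate in turn. Of the 8 genes, 3 were called against the *Cnmd*-group alone, 1 without those cells, 2 by library size alone, and 1 to 6 without each plate in turn. Plates 1 and 2 of each lineage share only a number (r = 0.050 over genes), and gave 340 genes and 2 of the 8 without and 400 and 3 with the replicate block. The sign of *Cdk4* was negative with no filter (-0.1942), the gene minimum over shared genes (-0.1939), the *Cnmd*-group (-0.3203), plates 1, 2 and 4 (-0.0695), plates 1 and 2 (-0.1119, with the block -0.1227), without *Grem1*-lineage plates 5, 6 and 9 (-0.0229, -0.0122 and -0.0326), *Lepr*-lineage plate 2 (-0.2031, against 0.2173 without its plate 1) or its chondrocyte gene cells (-0.0527), and per cell (-0.65). *Cdk6* was positive against the *Clu*-group (0.92), with plates 1, 2 and 4 (0.43) and plates 1 and 2 (0.3243, with the block 0.336), and *Ccnd2* against the *Cnmd*-group (0.73). Causes were not tested. The 0 to 4 *Lepr*-lineage UMIs of *Ccnd1* and *Cdkn1b* limit what can be said of them.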
